A study of Mus musculus with 22 samples.

Results

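The genes described here are 37 cell cycle genes of dividing progenitors, chosen by name from the 24490 gene entries in each table: 17 are known for S phase, when DNA is copied, and 20 for G2 and mitosis (G2/M). They were read across 22 RNA-seq libraries of mouse cortical neurons as a gauge of cycling cells in each culture. All cultures came from C57BL/6 embryos of genotype Creb1-/-, taken at E16.5 and used at 7 days in vitro. Creb1 is the gene of the transcription factor CREB. Firing was silenced in all of them, by 1 µM TTX against sodium channels and 100 µM D-AP5 against NMDA receptors. They then received a herpes simplex virus for 4 h or 8 h, and were depolarized for 2 h with 55 mM KCl. The virus carried GFP as the control, CREB of normal sequence (WT), or CREB with alanine at S40, a site of O-GlcNAc (S40A), at S133, a site of phosphorylation (S133A), or at both (S40A-S133A). At 4 h there were 2 libraries each of GFP, WT and S40A. At 8 h there were 4 each of GFP, WT and S40A and 2 each of S133A and S40A-S133A. No group was left without KCl, TTX or D-AP5, and no group carried an intact Creb1 gene, so none of these treatments has a comparison here. The culture protocol in the labels names no agent against dividing cells. Whether replicates came from different cultures is not in the labels. The p-values below therefore rest on sample-to-sample spread that may be technical.

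A cell that enters the cycle first switches on the genes for licensing and copying DNA, which E2F factors drive when the retinoblastoma proteins release them. Later it switches on the genes for chromosome segregation, which B-Myb and FoxM1 drive and which the DREAM complex holds down in resting cells through a promoter element called the cell cycle homology region. Neurons have left the cycle for good, so in a cortical culture these transcripts come mainly from radial glia, intermediate progenitors and glial precursors that still divide. In bulk RNA, fewer dividing cells and less of these transcripts per cell cannot be told apart.

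Many promoters of the members, but not all, carry the sequence words of these 2 programmes, and 5 that do are shown as examples. The S phase and G2/M genes moved by different amounts below, and the part of these words in that was not tested. The RefSeq promoter table (GRCm38.p6, 250 bases before and 50 after each start) held a window for 30 of the 37 members, 14 of them S phase and 16 G2/M; Mcm4, Pole, Ccne2, Ccna2, Aurkb, Tpx2 and Kif20a were not matched. Both strands were searched for TTTGAA or TTCGAA, the core letters of the cell cycle homology region, for the E2F words TTTCCCGC, TTTGGCGC and TTTCGCGC, and for CCAAT, the word bound by NF-Y. TTCGAA reads the same on both strands, and TTTGGCGC overlaps TTTCGCGC in 1 stretch below. Printed 5′ to 3′ on the gene's strand, these 5 stretches lie before the start, with the matched words in capitals.
Cdc20, chr4:118437344-118437403, minus strand: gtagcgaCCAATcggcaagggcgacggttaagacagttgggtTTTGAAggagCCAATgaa
Kif11, chr19:37376322-37376381, plus strand: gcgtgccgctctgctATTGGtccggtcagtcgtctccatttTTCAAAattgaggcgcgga
Cdk1, chr10:69352913-69353048, minus strand: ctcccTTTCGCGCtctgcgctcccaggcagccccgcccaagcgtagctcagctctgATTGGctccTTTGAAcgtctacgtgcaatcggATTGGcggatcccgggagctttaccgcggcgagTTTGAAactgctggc
Mcm6, chr1:128359706-128359821, minus strand: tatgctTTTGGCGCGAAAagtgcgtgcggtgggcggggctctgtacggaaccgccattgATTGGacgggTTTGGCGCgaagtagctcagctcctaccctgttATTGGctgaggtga
Pola1, chrX:93632156-93632300, minus strand: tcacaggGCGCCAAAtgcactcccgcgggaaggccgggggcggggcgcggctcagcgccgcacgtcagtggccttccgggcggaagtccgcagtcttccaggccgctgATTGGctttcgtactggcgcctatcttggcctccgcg
Cdc20, Kif11 and Cdk1, all G2/M genes, hold the cell cycle homology word near the start, on the opposite strand as TTCAAA in Kif11. Mcm6 and Pola1, S phase genes, hold E2F words instead. Over the members with a window, the homology word was in 12 of 16 G2/M genes and 3 of 14 S phase genes, against 19.2% of all 32851 promoter windows. An E2F word was in 8 of 14 S phase genes and in 1 of 16 G2/M genes, Cdk1, against 1.84% of all windows. CCAAT was in 14 of 16 G2/M and 11 of 14 S phase genes, against 37.4% of all windows. These matches describe letters in a window, not binding.

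The depth read from the smallest values was 17.05 to 31.4 M fragments in the 19 libraries where it could be read, and Cufflinks' own interval for a member spanned, at the median gene of a library, 7.96% to 20.6% of its value on either side. Creb1, the gene that the virus supplies, checked the GFP labels against the CREB labels, but not 1 CREB form against another. It was at 9.56 to 15.7 FPKM in the 6 GFP libraries, so Creb1 RNA was read in these Creb1-/- cultures too. In the 16 libraries with a CREB virus it was at 234 to 268 FPKM at 4 h and at 566 to 2306 FPKM at 8 h. The libraries were sorted into runs by the numbers in the deposited file names and by the replicate labels, which name no run. Each run has 1 library per virus: A and B at 4 h, C1 and C2 (an earlier set) and D1 and D2 (a later set) at 8 h. A set of 4 libraries stands apart: the 3 of run A and GFP at 8 h replicate 2. Rpl9, a ribosomal protein gene with many pseudogene copies, was at 246 to 256 FPKM in these 4 and at 0.174 to 0.992 in the other 18. The 4 were not alike for Gapdh, at 13.3 to 15.3 FPKM in run A and 130 in GFP replicate 2, against 0.702 to 1.59 in the other 18. Which libraries hold the truer values was not tested. The 3 tables of run A also mark 347 entries each as having too little data, a mark found in no other table. Results that rest on these 4 libraries are given with and without them. The labelled cell type held: Tubb3, a neuronal tubulin, was at 253 to 491 FPKM and Stmn2, a growth-associated protein, at 625 to 1073 FPKM over the 22 libraries.

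FPKM is fragments per length of transcript and library size, as the authors deposited it; it was scaled here between libraries and tested as log2(FPKM + 1), which understates the change of low genes. A gene is called when its adjusted p is under 0.05 (limma with Benjamini-Hochberg adjustment over 12097 genes). Of the 37 members, 33 reached the minimum mean of 1 FPKM and were tested, 14 of them S phase and 19 G2/M.

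The cell cycle genes were higher at 4 h than at 8 h, and G2/M genes more so than S phase genes. Summed over the tested members, the S phase genes were at 139 to 220 FPKM in run A, 84.1 to 92.9 in run B and 47.0 to 83.2 in the 16 libraries at 8 h. The G2/M genes were at 102 to 216 FPKM in run A, 75.9 to 76.3 in run B and 18.7 to 40.7 at 8 h. All 6 libraries at 4 h lay above all 16 at 8 h in both sums. For S phase the nearest libraries lay at 84.1 and 83.2 FPKM, and for G2/M at 75.9 and 40.7 FPKM.

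**Figure D1:**
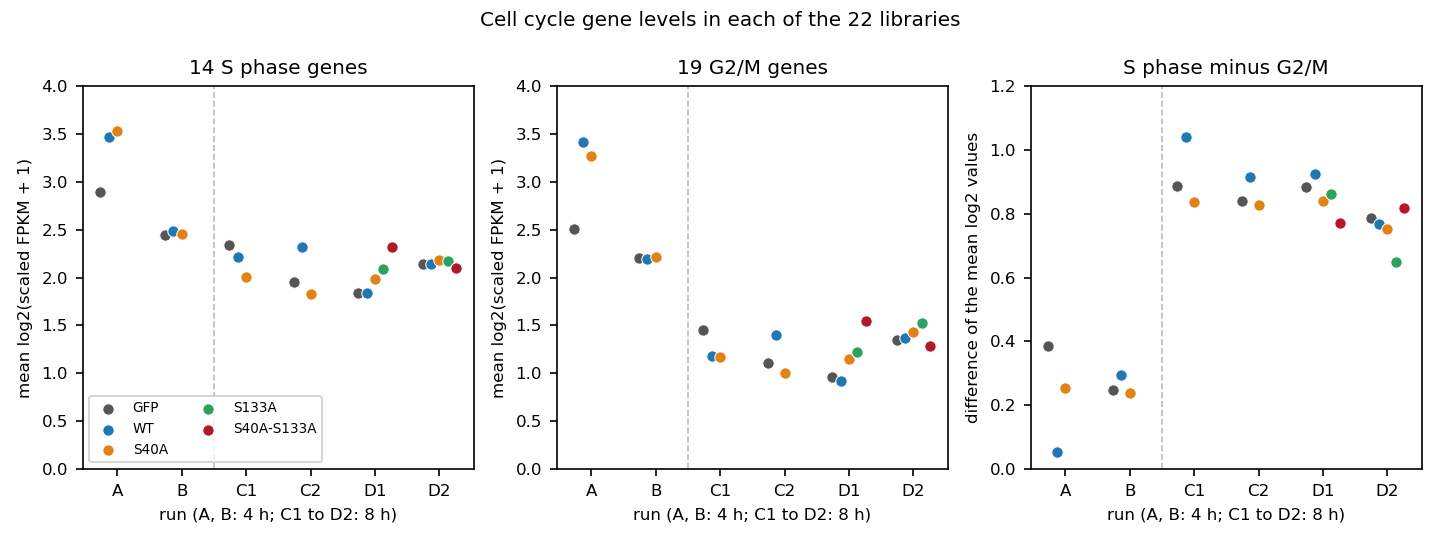
Mean log2(scaled FPKM + 1) of the 14 S phase genes, of the 19 G2/M genes, and their difference, 1 point per library, by run on the x axis and coloured by virus; the dashed line parts 4 h from 8 h. The S minus G2/M difference sits between 0.05 and 0.38 in the 6 libraries at 4 h and between 0.65 and 1.04 in the 16 at 8 h.

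Licensing comes before DNA is copied: Cdc6 and Cdt1 load the Mcm2-7 helicase at origins, and Cdc45 later helps to activate it. Mcm6 (chromosome 1, 128331591 to 128359656, mm10), a helicase subunit, was at 7.82, 11.1 and 12.5 FPKM in the GFP, WT and S40A libraries of run A. In run B it was at 5.53, 6.10 and 5.53 FPKM, and at 8 h it ranged from 2.49 to 4.93 with a median of 3.37. All libraries at 4 h were therefore above all at 8 h for Mcm6. Mcm3 (chromosome 1, 20803014 to 20820213) was at 5.83, 10.6 and 10.9 FPKM in run A, at 3.73, 3.27 and 3.36 in run B, and at 1.04 to 2.86 (median 1.80) at 8 h. Mcm4 and Mcm5, too, were higher in all 3 libraries of run B than in any at 8 h, at 2.95 to 3.46 FPKM against 1.42 to 2.81 for Mcm4 and at 3.96 to 4.65 against 1.89 to 3.90 for Mcm5. Mcm2 and Mcm7 overlapped between run B and 8 h. Cdt1 went another way: at 5.99, 9.13 and 9.98 FPKM it was high in run A, but its run B values of 2.91 to 3.81 lay inside the 8 h range of 2.77 to 4.99. Cdc6 was at 1.21, 2.51 and 1.83 FPKM in run A, at 1.33 to 1.64 in run B and at 0.23 to 1.25 at 8 h, so that only the GFP library of run A overlapped with 8 h. Cdc45 was at 1.38 to 2.01 FPKM in run B and at 0.71 to 1.45 at 8 h. For the 9 licensing genes, the median ratio of run B to 8 h was 1.52.

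The genes of DNA synthesis and nucleotide supply include the 3 members with the highest levels at 8 h, Pcna, Rrm2 and Rrm1. Pcna (chromosome 2, 132249286 to 132253180), the sliding clamp of the DNA polymerases, was at 47.9, 64.4 and 59.5 FPKM in the GFP, WT and S40A libraries of run A and at 18.1, 21.7 and 22.7 in run B. At 8 h it ranged from 10.1 to 30.8 with a median of 17.3, and the highest value was that of GFP replicate 2, 1 of the 4 libraries that stand apart. Run B thus lay within the range at 8 h. Rrm2 (chromosome 12, 24708254 to 24714146), the regulated subunit of ribonucleotide reductase, was at 27.0, 52.1 and 52.3 FPKM in run A, at 14.8, 17.01 and 15.0 in run B and at 7.93 to 18.5 (median 13.6) at 8 h. Its partner Rrm1, the large subunit, was the 1 member that was higher on average in run B than in run A: 16.0, 18.9 and 18.6 FPKM against 11.2, 15.3 and 16.97, with 5.96 to 16.6 (median 10.5) at 8 h. Pola1 (chromosome X, 93304766 to 93632155), the catalytic subunit of DNA polymerase alpha, was lower in run B, at 2.18 to 2.47 FPKM, than the median of 2.58 at 8 h. Uhrf1, which brings DNA methylation to newly copied DNA, was at 3.38 to 7.43 FPKM in run A, 1.29 to 1.53 in run B and 0.37 to 1.39 at 8 h. Over the 5 tested genes of this role, the median ratio of run B to 8 h was 1.22. Pcna, with 2 pseudogene entries in the annotation, is uncertain where reads could be split among copies.

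The G2/M genes separated the times more sharply. Top2a (chromosome 11, 98992947 to 99024189), the topoisomerase that untangles sister chromatids, was at 18.3, 38.6 and 39.7 FPKM in the GFP, WT and S40A libraries of run A. In run B it was at 11.5, 11.5 and 10.7 FPKM, and at 8 h at 1.00 to 5.19 with a median of 2.91. No library at 8 h reached the lowest of those at 4 h. Mki67 (chromosome 7, 135689788 to 135716379), whose protein Ki-67 coats mitotic chromosomes and marks cycling cells, was at 8.80, 20.8 and 16.4 FPKM in run A, at 6.51, 5.79 and 5.57 in run B and at 1.17 to 3.02 (median 2.10) at 8 h. The median ratio of run B to 8 h over these 2 chromosome genes was 3.49.

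Cyclins A and B switch on Cdk1, the kinase that starts mitosis. Cdk1 (chromosome 10, 69336635 to 69352912), whose promoter above holds both kinds of word, was at 3.76, 8.202 and 6.37 FPKM in run A, at 4.24, 4.87 and 4.45 in run B and at 0.48 to 2.07 (median 1.39) at 8 h. Here the 2 runs at 4 h overlapped, and both lay above 8 h. Ccna2, cyclin A2, was at 6.20 to 6.82 FPKM in run B and at 1.57 to 4.70 (median 2.57) at 8 h. Ccnb1 (chromosome 13, 100778739 to 100786486), cyclin B1, showed the widest gap between the 2 runs at 4 h: 7.96, 18.2 and 13.2 FPKM in run A against 1.56, 1.201 and 1.33 in run B, with 0.26 to 1.12 (median 0.36) at 8 h. The 8 h maximum was again that of GFP replicate 2, and Ccnb1, like Ccnb2, has a pseudogene entry in the annotation. Ccnb2, cyclin B2, was the G2/M gene that separated the times least, at 2.68 to 4.71 FPKM in run B and 1.56 to 3.34 at 8 h.

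Among the mitotic kinases and checkpoint genes, Aurka (chromosome 2, 172356190 to 172370570), a kinase of the spindle poles, was at 5.04, 11.8 and 8.95 FPKM in run A, at 5.35, 6.09 and 6.08 in run B and at 1.61 to 3.71 (median 2.28) at 8 h. Aurkb and its partner Birc5 (survivin), of the chromosomal passenger complex, were at 2.98 to 3.10 and 3.11 to 4.68 FPKM in run B against 0.60 to 2.19 and 1.07 to 2.66 at 8 h. Plk1, the polo-like kinase of mitotic entry and exit, was at 3.25 to 3.55 FPKM in run B and at 1.11 to 2.38 at 8 h. Aurka, Aurkb, Birc5 and Plk1 did not overlap between run B and 8 h. Bub1, a checkpoint kinase of the kinetochore, was at 2.35, 4.30 and 3.98 FPKM in run A, at 1.84, 1.37 and 1.88 in run B and at 0.32 to 1.10 at 8 h, again without overlap. Cdc20, the activator of the anaphase-promoting complex, did overlap: 2.70 to 4.41 FPKM in run B and 0.92 to 3.06 at 8 h. Bub1b, a spindle checkpoint kinase homologue, overlapped through run D2 alone, where it was at 2.54 to 3.47 FPKM, while the other 11 libraries at 8 h stayed at 0.46 to 1.54.

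The spindle genes all lay higher in run B than at 8 h. Kif11 (chromosome 19, 37376403 to 37421859), the motor that pushes spindle poles apart, was at 5.82, 12.3 and 9.52 FPKM in run A, at 5.07, 5.06 and 4.90 in run B and at 0.64 to 2.07 (median 1.21) at 8 h. Tpx2, which brings Aurora A to the spindle, was at 2.58 to 3.10 FPKM in run B and 0.34 to 1.25 at 8 h. Cenpe and Cenpf, kinetochore proteins, were at 2.21 to 2.35 and 1.84 to 1.90 FPKM in run B and at 0.47 to 1.03 and 0.34 to 0.88 at 8 h. Nusap1 and Hmmr, which bind spindle microtubules, were at 3.603 to 4.79 and 1.95 to 2.29 FPKM in run B and at 0.80 to 2.20 and 0.47 to 1.03 at 8 h. None of these 6 spindle genes overlapped between run B and 8 h, and their median ratio was 3.18.

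**Figure D2:**
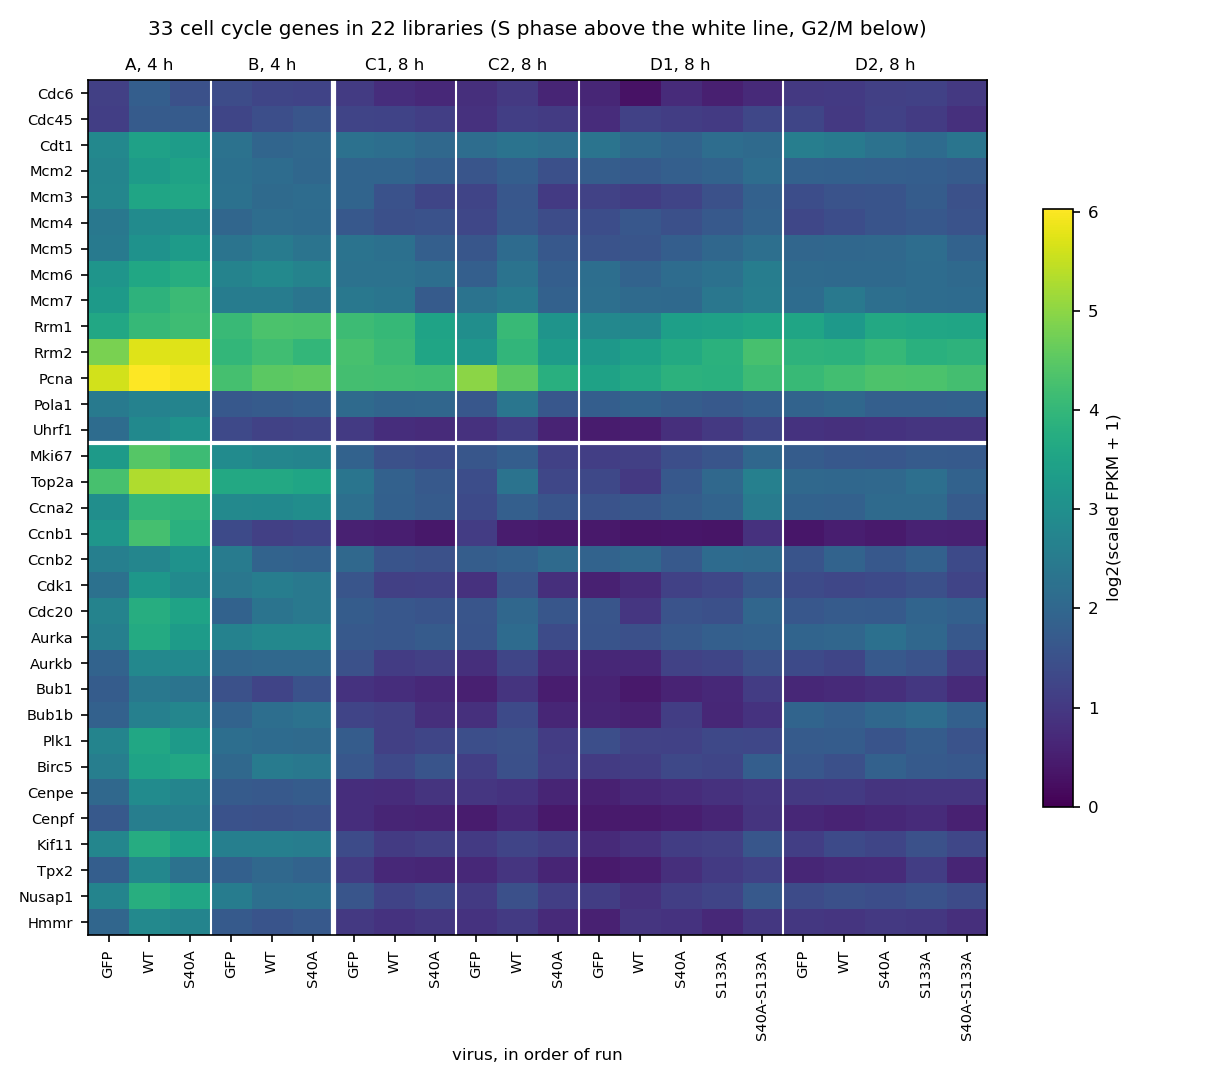
Log2(scaled FPKM + 1) of the 33 tested genes (rows, S phase above the horizontal white line) in each of the 22 libraries (columns, by run and virus). The G2/M rows darken from run B to the runs at 8 h, while Pcna, Rrm1 and Rrm2 keep the highest levels at 8 h.

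Counted over all tested members, all 6 libraries at 4 h lay above all 16 at 8 h for 20 of 33, 4 S phase and 16 G2/M; the same held for 4.32% of all genes tested. With run B alone as the 4 h arm the count was 21 of 33, 5 S phase and 16 G2/M, against 12.6% of all genes. The median ratio of run B to 8 h was 1.49 for the S phase genes (0.86 to 1.93) and 2.57 for the G2/M genes (1.33 to 4.03). The balance of the phases differed as well as the level. The summed S phase level was 1.00 to 1.37 times the summed G2/M level in run A, 1.11 to 1.22 times in run B and 1.80 to 2.97 times at 8 h. The 2 runs at 4 h, which differed in level, overlapped in this ratio, and neither reached the range at 8 h. The S phase sums lean on Pcna, Rrm2 and Rrm1, the members with the highest levels at 8 h. The S minus G2/M difference of the mean log2 values, which weighs the genes alike, was 0.05 to 0.38 at 4 h and 0.65 to 1.04 at 8 h. The difference between the S phase and G2/M genes was not tested, since the members were chosen as a list.

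The comparison of 8 h with 4 h was tested gene by gene. With GFP, WT and S40A averaged, a contrast chosen after seeing the data, 31 of 33 members were lower at 8 h, 12 of 14 S phase and all 19 G2/M genes, whereas 20.8% of all genes were called lower and 21.5% higher (42.3% in either direction). The median log2 difference was -0.90 over the S phase and -1.33 over the G2/M genes, against -0.02 over all genes tested. Top2a fell by 2.55 ± 0.30 (SE) on the log2 scale, Ccnb1 by 2.01 ± 0.42, Mki67 by 1.86 ± 0.23 and Kif11 by 1.83 ± 0.16. Of the S phase genes, Mcm3 fell by 1.33 ± 0.23, Uhrf1 by 1.18 ± 0.26 and Mcm6 by 1.03 ± 0.16. The adjusted p of these genes in limma ran from 2.4e-06 for Kif11 to 0.0021 for Uhrf1. In the same limma fit Cdt1 (-0.42 ± 0.20, adjusted p = 0.11) and Pola1 (-0.27 ± 0.16, adjusted p = 0.19) were the 2 members not called; their 95% confidence intervals ran from -0.85 to 0.01 and from -0.62 to 0.08.

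Without run A and GFP 8 h replicate 2, 25 of 33 members were lower at 8 h, 8 of 14 S phase and 17 of 19 G2/M genes, against 20.2% of all genes. In this version each virus has 1 library at 4 h, all from run B, so the spread and the standard errors come from the 8 h groups alone, and the 4 h libraries are assumed to vary like them. The medians were then -0.42 for the S phase and -0.93 for the G2/M genes. Top2a fell by 1.81 ± 0.28 on the log2 scale, Kif11 by 1.47 ± 0.14, Cdk1 by 1.29 ± 0.21 and Mki67 by 1.28 ± 0.18. Ccnb1 fell by 0.80 ± 0.07, a smaller change than with all libraries. The S phase genes Mcm3 and Rrm1 fell by 0.73 ± 0.17 and 0.72 ± 0.24, and Mcm6 by 0.62 ± 0.12. The 6 S phase genes not called were Cdc6, Cdt1, Mcm7, Rrm2, Pcna and Pola1. Cdt1 (0.15 ± 0.11) and Pola1 (0.21 ± 0.10) had positive differences here, with adjusted p = 0.30 and 0.11 in limma. Ccnb2 (-0.30 ± 0.18) and Bub1b (-0.93 ± 0.41) were the G2/M genes not called. No run holds both times, so time after infection and run cannot be told apart in either version. All fits of 8 h against 4 h count the libraries of 1 run as separate samples, although time differs only between runs. Their standard errors and p-values may therefore be too small.

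**Figure D3:**
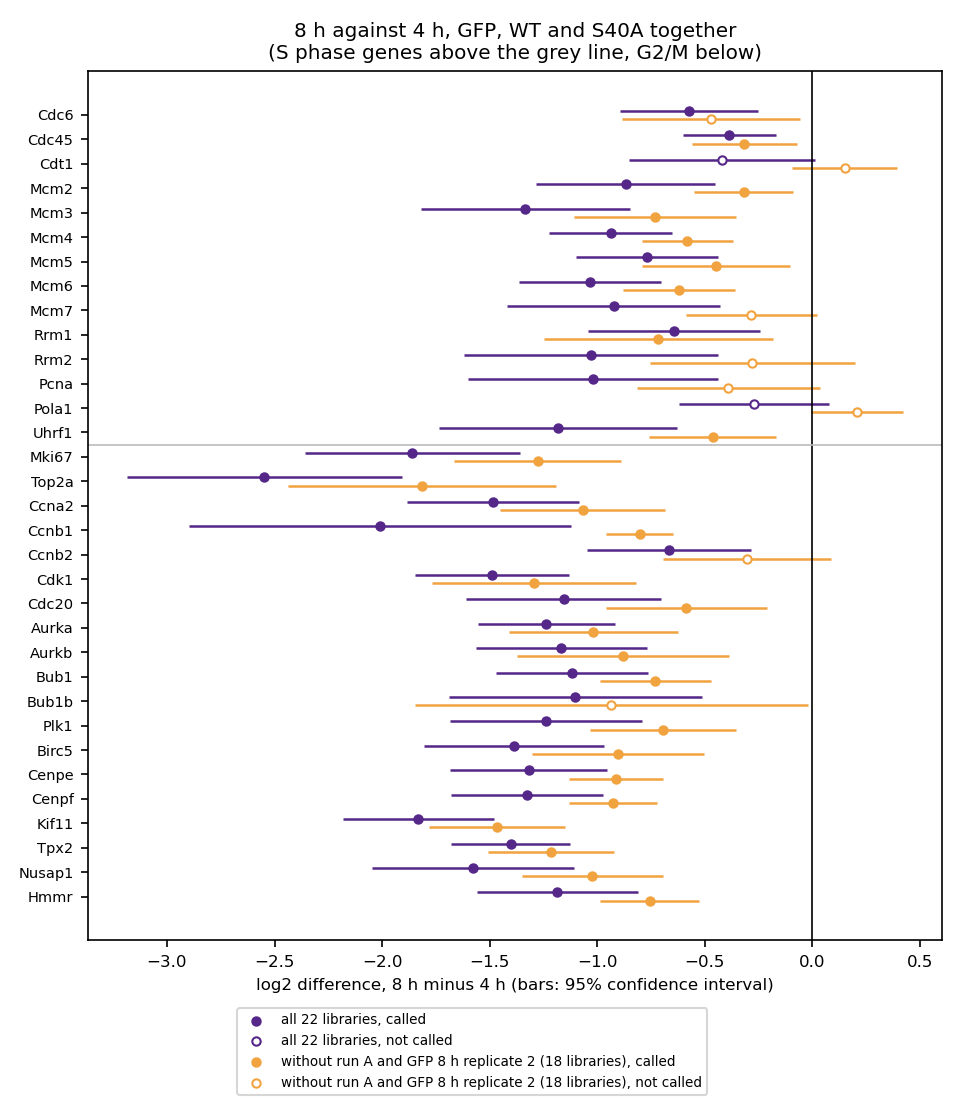
Log2 difference of each tested gene, 8 h minus 4 h, over GFP, WT and S40A together, with 95% confidence intervals; purple for all 22 libraries, orange without run A and GFP 8 h replicate 2, filled points for called genes. All 19 G2/M genes stay left of 0 in both versions, and Cdt1 and Pola1 move to its right without the 4 libraries.

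In the GFP cultures alone, whose virus carried no CREB, 13 of 33 members were lower at 8 h, 1 S phase gene (Mcm4) and 12 G2/M genes. Of all genes 4.6% were called lower and 6.94% higher (11.5% in either direction). All 33 differences were below 0, with medians of -0.66 for the S phase and -1.01 for the G2/M genes. Kif11 fell by 1.63 on the log2 scale (adjusted p = 0.0037, limma) and Tpx2 by 1.11 (adjusted p = 0.0075). This count rests on single libraries: without GFP 4 h replicate 1 it was 1, without GFP 4 h replicate 2 it was 3, without GFP 8 h replicate 2 or 3 it was 4, and without GFP 8 h replicate 4 it was 7. Without run A and GFP 8 h replicate 2 it was 8, all G2/M, against 2.4% of all genes called lower. Each of the fits without a GFP library at 4 h leaves 1 GFP library at that time, which is assumed to vary like the other groups. Whether the change with time differed between viruses was tested directly, and 0 of 33 members were called for WT against GFP or for S40A against GFP (0.0165% and 0.00827% of all genes; 0 members at an unadjusted p under 0.05). The differences were below 0 for 31 of 33 members for WT (median -0.37) and for 33 of 33 for S40A (-0.40). Without the 4 libraries 0 members were called in either (0.198% and 0.19% of all genes), with medians of -0.05 and -0.12 and 15 and 10 members above 0.

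Further G2/M genes mostly moved with the members, and further S phase genes did so less. The counts below stand beside 20.8% of all genes called lower and 21.5% higher with all libraries, and 20.2% lower without the 4. Of 38 further G2/M genes tested, 36 were lower at 8 h over the 3 viruses together and 0 higher; without the 4 libraries 32 were lower, and 1, Cdc25b, a phosphatase that activates Cdk1, was higher (0.74 on the log2 scale). Among them Kif23, a motor of cytokinesis, was at 3.62 to 4.52 FPKM in run B and 0.56 to 1.77 at 8 h. Ect2 and Racgap1, which position the cleavage furrow, fell by 1.05 and 0.92 on the log2 scale without the 4 libraries. Of 26 further S phase genes, 17 were lower in all libraries but only 7 without the 4 libraries, not far from the share of all genes. In that version Ccne1 (0.44), Cdc7 (0.43) and Orc6 (0.36), which act before or at the start of S phase, had positive log2 differences. They are 3 of 26 genes, and no pattern is read from them. Dbf4, the activating subunit of Cdc7, fell by 0.82. Ccne1, cyclin E1, was at 2.09 to 2.95 FPKM in run B and at 3.23 to 6.32 at 8 h, with no overlap, but run A, at 5.95 to 6.402, lay at the top of the 8 h range.

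Most regulators of the 2 programmes were also lower at 8 h. Of 17 tested genes of the E2F, retinoblastoma and DREAM families, 13 were lower and 2 higher (10 and 2 without the 4 libraries). E2f8 and E2f7, repressor E2Fs that peak in S phase, fell by 0.84 and 0.68 on the log2 scale without the 4 libraries, E2f1 by 0.67 and Foxm1, the activator of G2/M genes, by 0.61. Foxm1 was at 1.85 to 2.32 FPKM in run B and at 0.66 to 1.93 at 8 h. E2f4 (0.48) and Lin37 (0.54), both subunits of DREAM, rose, with all libraries too. Of 13 inhibitors and exit genes, 5 were higher at 8 h and 4 lower (3 and 4 without the 4 libraries), so this list did not move one way; of all genes 21.5% were higher and 20.8% lower. Cdkn1c, the inhibitor p57, was at 3.79 to 4.84 FPKM in run B and 5.83 to 15.6 at 8 h, and rose by 1.13 without the 4 libraries. Cdkn1b, the inhibitor p27, was higher in run B (153 to 175 FPKM) than in any library at 8 h (26.3 to 109), and fell by 1.32, while run A, at 71.6 to 90.3 FPKM, lay within the 8 h range. Of 8 G1 cyclins and kinases, 4 were lower, and 2 without the 4 libraries: there Cdk2 fell by 0.68, and Ccnd3, cyclin D3, which was not called with all libraries, by 0.71.

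Markers of some cell types that can divide differed between the times as well. The counts of called markers stand beside 20.8% of all genes lower and 21.5% higher with all libraries, and 20.2% lower without the 4. The radial glia and astrocyte list (17 genes, all tested) summed to 404 to 992 FPKM in run A, 370 to 483 in run B and 154 to 459 at 8 h, and 9 were lower and 2 higher (6 and 2 without the 4 libraries). Nes (nestin) was at 8.19 to 11.4 FPKM in run B and 3.12 to 8.55 at 8 h, Pax6 at 3.99 to 5.79 and 1.11 to 4.24, and Vim (vimentin) at 76.4 to 84.7 and 18.1 to 59.1. Nes and Pax6 overlapped slightly and Vim did not. Without the 4 libraries Hopx rose by 1.53 and Hes1 by 1.16 on the log2 scale; with all libraries Hopx rose and Hes1 was not called. The oligodendrocyte precursor list (10 genes, 8 tested) summed to 84.8 to 132.6 FPKM in run A, 101.5 to 141 in run B and 30.5 to 75.3 at 8 h, with no overlap between the times, and 6 were lower and 1 higher (5 and 0 without the 4 libraries). Pdgfra, the receptor that drives precursor division, was at 4.22 to 7.10 FPKM in run B and 0.61 to 2.22 at 8 h. Olig2, a transcription factor of these precursors, was at 22.6 to 34.5 FPKM in run B and 3.12 to 9.82 at 8 h, without overlap. The intermediate progenitor list (10 genes, 9 tested) summed to 176 to 313 FPKM in run A, 294 to 341 in run B and 277 to 483 (median 390.2) at 8 h, so that its median was higher at 8 h, and 3 were lower and 2 higher (3 and 1 without the 4 libraries). Of these, without the 4 libraries Dll3 and Insm1 fell by 0.87 and 1.02, and Eomes, which defines these cells, rose by 1.29, from 0.42 to 0.67 FPKM in run B to 1.39 to 3.96 at 8 h. Run A, at 1.18 to 2.996 FPKM, overlapped with 8 h for Eomes.

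Most microglia genes were below the minimum. Of 12 microglia genes, 3 reached it (Cd68, Ctss and Tyrobp), and among the others P2ry12 and Tmem119 were at 0 to 0.09 and 0.01 to 0.28 FPKM. Of the 3, Cd68 and Ctss were lower at 8 h (-0.83 and -0.82 on the log2 scale), and without the 4 libraries Cd68 alone. The list summed to 19.8 to 21.7 FPKM in run A, 12.7 to 23.4 in run B and 3.85 to 46.7 at 8 h, with medians of 20.5, 16.1 and 8.09; the value of 46.7 was that of WT in run C2. Of 14 vascular and fibroblast genes, 5 were tested, 2 were higher (1 without the 4 libraries), and the list summed to 8.36 to 11.4 FPKM in run A, 9.03 to 10.9 in run B and 10.3 to 24.8 at 8 h. Neuronal genes summed to 1665 to 1939 FPKM in run A, 2127 to 2377 in run B and 1793 to 2495 at 8 h. Of 14 neuronal genes 2 were higher and 3 lower at 8 h (2 and 5 without the 4 libraries). Of all genes 21.5% were higher and 20.8% lower, and 20.2% lower without the 4. The part of these cell types in the change of the cell cycle genes was not tested.

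**Figure D4:**
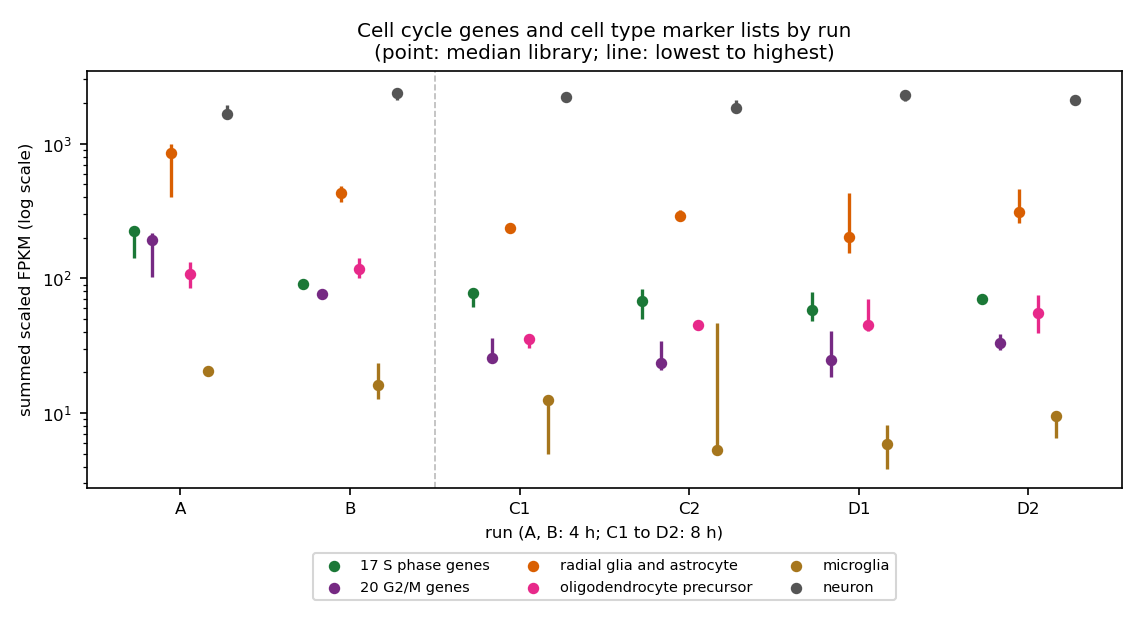
Summed scaled FPKM (log axis) of the S phase and G2/M genes and of 4 cell type marker lists by run; points are the median library and lines run from the lowest to the highest. The G2/M genes and the oligodendrocyte precursor markers step down between run B and C1, and the neuronal markers stay between 1665 and 2495 FPKM.

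No cell cycle gene was called between viruses at 8 h. In each of the 7 comparisons, and for the mean of the 4 CREB forms against GFP, 0 of 33 members were called in limma; 0 to 3 of all 12097 genes were called, which is 0% to 0.0248% (0.00827% for WT, 0.00827% for S40A, 0.0248% for S133A and 0.0165% for S40A-S133A against GFP, 0% for S40A, 0.0165% for S133A and 0.00827% for S40A-S133A against WT, 0.0248% for the mean of the 4 forms). At an unadjusted p under 0.05 the counts of members were 0 for WT against GFP, 0 for S40A against GFP, 1 for S133A against GFP (Tpx2), 2 for S40A-S133A against GFP (Kif11 and Mcm4), 1 for S40A against WT (Mcm7) and 0 in the other 3. The median log2 differences from GFP were 0.06 (S phase) and 0.02 (G2/M) for WT, -0.05 and -0.02 for S40A, 0.10 and 0.16 for S133A, and 0.22 and 0.26 for S40A-S133A.

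The intervals give the size of change that these libraries leave possible. Top2a, WT minus GFP at 8 h, was 0.02 with a 95% confidence interval of -0.66 to 0.69, and S40A minus WT was -0.13 with an interval of -0.80 to 0.55. For S40A-S133A minus GFP it was 0.56 with an interval of -0.31 to 1.43. Mcm6 was better resolved, at 0.04 for WT minus GFP with an interval of -0.27 to 0.36. Pcna, S133A minus WT, was at 0.12 with an interval of -0.59 to 0.83. These comparisons share their GFP or WT libraries.

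Within a run each virus had 1 library. The deviations of libraries of 1 run had correlations of -0.04 to 0.18 in runs C1 and C2. In runs D1 and D2 these were all positive, at 0.04 to 0.40. Over their runs at 8 h, WT, S40A and S40A-S133A had no fixed direction. S133A, present only in runs D1 and D2, lay above GFP and WT in both. S40A did so in these 2 runs as well. It was above GFP for 24 (median 0.21) and 22 (0.07) of 33 members, and above WT for 25 (0.20) and 21 (0.03). In run C1 all 33 members were lower with WT than with GFP (median -0.16), and in run C2, 30 of 33 were higher (0.35). S40A lay below WT for 32 of 33 members in run C2 (median -0.42), and above WT for 25 in run D1 (0.20). S40A-S133A was above GFP for 31 of 33 members in run D1 (0.51) and for 10 of 33 in run D2 (-0.06). S133A was above GFP for 27 of 33 in run D1 (0.24) and 24 of 33 in run D2 (0.10), and above WT for 29 (0.28) and 26 (0.11). The library with the highest G2/M sum at 8 h, S40A-S133A in run D1 (40.7 FPKM), also had a radial glia and astrocyte sum of 428 FPKM and an oligodendrocyte precursor sum of 70.7 FPKM. GFP in the same run had sums of 390.1 and 55.7 FPKM with a G2/M sum of 20.0 FPKM, and S40A in run D2 a radial glia and astrocyte sum of 260 FPKM with 35.3 FPKM, so the sums did not always go together. WT in run C2, with 34.2 FPKM, had the highest microglia sum, 46.7 FPKM. The part of these cells in the differences between viruses was not tested.

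**Figure D5:**
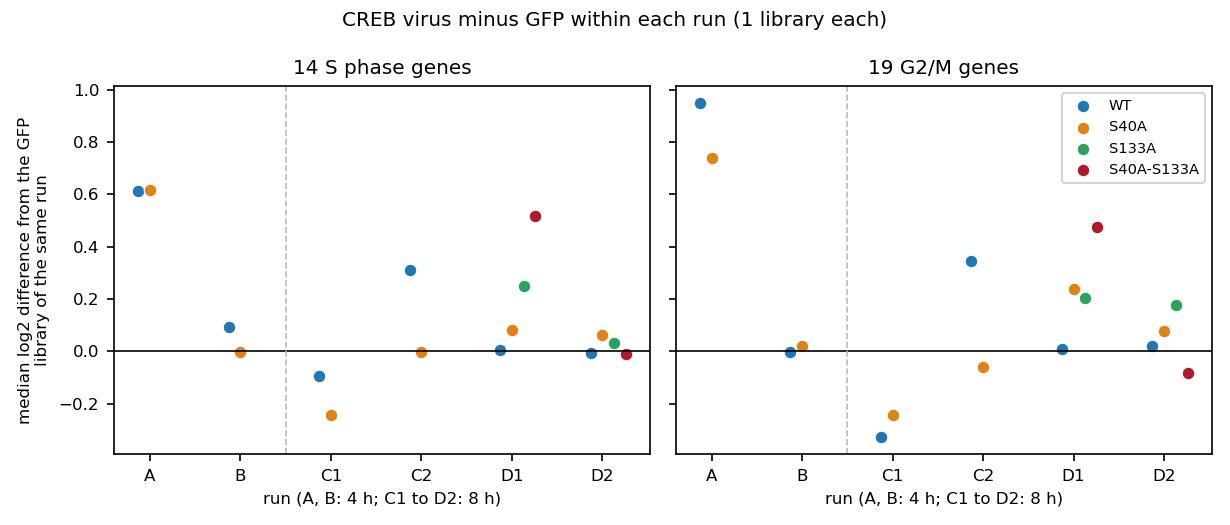
Median log2 difference of the S phase genes (left) and G2/M genes (right) between each CREB virus and the GFP library of the same run, 1 library each. The deviations of libraries of 1 run all correlated positively in runs D1 and D2. In runs C1 and C2 such libraries are not shown to be pairs. WT lies below GFP in run C1, above it in runs A and C2, and between -0.01 and 0.09 in runs B, D1 and D2.

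At 4 h, too, 0 of 33 members were called for WT against GFP, S40A against GFP or S40A against WT (0.0909% of all genes in each; 0.0331% lower and 0.0579% higher for the first 2, 0.0413% and 0.0496% for the last). Cdc45 alone had an unadjusted p under 0.05, for WT and for S40A against GFP. The medians for WT minus GFP were 0.31 for S phase and 0.48 for G2/M genes, with 32 of 33 members above 0, and for S40A minus GFP 0.32 and 0.35, again with 32 of 33 above 0. These differences were present in run A and not in run B. In run A, WT and S40A were above GFP in 33 of 33 members, with medians of 0.84 and 0.72. In run B each was above GFP in 18 of 33, with medians of 0.01. Top2a in run A was at 18.3 FPKM with GFP against 38.6 and 39.7 with WT and S40A, and in run B at 11.5 against 11.5 and 10.7. The radial glia and astrocyte sum had the same order in run A, 404 FPKM with GFP against 855 and 992, and another in run B, 483 against 370 and 427; its part in the result was not tested. With 2 libraries a group, the interval for Top2a, WT minus GFP, ran from -1.81 to 2.86. The 4 h fit holds no term for run.

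The runs at 4 h differed from each other in most members. Run B was below run A for 32 of 33 members, all but Rrm1, with medians of -0.97 for S phase and -0.77 for G2/M genes. Of these, 15 were called lower, 10 S phase and 5 G2/M, while 20.9% of all genes were called lower and 19.9% higher (40.8% in either direction). All 3 libraries of run A lay above all 3 of run B for 24 members, against 32.8% of all genes. Ccnb1 fell by 2.51 ± 0.29 (SE) on the log2 scale (adjusted p = 0.013, limma), Uhrf1 by 1.44 ± 0.25 and Pcna by 1.41 ± 0.06. The count of 15 became 1 without either WT or either S40A library at 4 h, and 27 without either GFP library. Since the tables of run A also carry marks that no other table has, differences between the cultures and between the tables cannot be told apart here.

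At 8 h the runs differed less. Between runs C1 and C2, and between the earlier and later sets, 0 of 33 members were called in limma (0% and 0.107% of all genes; 1 and 0 members at an unadjusted p under 0.05). Run D2 was above run D1 for 26 of 33 members, and 3 were called higher against 10.6% of all genes: Bub1b by 1.196 (adjusted p = 0.0023, limma), Cdc6 by 0.49 and Plk1 by 0.39. The share of members is near the share of all genes. Bub1b was at 0.46 to 1.13 FPKM in the 5 libraries of run D1 and at 2.54 to 3.47 in the 5 of run D2, without overlap.

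Genes outside the list whose levels followed the members most closely were found by the Pearson correlation with the members' mean after each run's mean was removed, over 22 libraries and 6 runs, as a description. They were Kif18b (0.95), Ckap2l (0.94), Spag5 (0.94), Ncaph (0.94), Chd7 (0.93), Kif2c (0.93), Kif4 (0.93), Kif20b (0.93), Tacc3 (0.93) and Prc1 (0.93). Without the 4 libraries that stand apart, the same 10 genes had correlations of 0.86 to 0.94. Runs were read from file names and replicate labels, and depth differs between libraries.

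The 4 members below the minimum were Ccne2, Tyms, Pole and Kif20a. Kif20a, a motor of cytokinesis, was listed at 0 in all 22 tables. Ccne2, cyclin E2, was listed at 0 in 19, and was at 3.87 FPKM with WT and with S40A in run A and at 1.82 with GFP in run D2. A 0 listed beside expressed neighbours in the same pathway can be a failed estimate, so nothing is read from it. Tyms (thymidylate synthase) and Pole (the catalytic subunit of DNA polymerase epsilon) were measured in every library, at 0.30 to 1.35 and 0.30 to 2.25 FPKM. Pole was at 0.89 to 1.24 FPKM in run B and at 0.30 to 0.84 at 8 h, without overlap.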

How the data were processed

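Each table holds FPKM per gene (fragments scaled by transcript length and library size) as the authors deposited it from Cufflinks, with its 95% interval. Per the submitters' processing notes, CASAVA 1.7, Bowtie 0.12.2 and Cufflinks were used and the builds mm8 and mm10 are named without a role; the gene positions in the files fall on mm10. The Cufflinks version and the counting of strand are not given in the sources used here.

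From these, 23 entries marked as failed estimates were left out, entries that share a symbol (766) were kept as separate entries, and libraries were scaled by median-of-ratios factors (0.863 to 1.12) over 14290 genes. The 12097 genes that averaged 1 FPKM or more across all libraries were fitted as log2(FPKM + 1) with limma 3.58.1 in R 4.3.3 (trend, two-sided, Benjamini-Hochberg adjustment over all of them), with virus group and, at 8 h, the library set (earlier or later) as terms. FPKM holds no counts, so no count test was run; depth was estimated from entries worth 1 fragment. Groups came from the titles, and no 2 libraries held identical values. The method was tested on simulated data. The 37 members, the pathway lists and the marker lists were chosen with earlier results of these data known. Values are described by role, with those of every library for members that were called or most abundant in their role. Alternatives were another pseudocount (0.1 FPKM), another minimum (0.1 FPKM), no scaling, no library set or virus group term, a replicate block, and each library, run or set left out. Python 3.11.15 made the tables (pandas 2.3.3) and figures (matplotlib 3.10.9). The list of inhibitory progenitor markers is not reported here.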

Additional observations from a re-analysis of the deposited data

Results flagged for a closer look

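Mcm2, a helicase subunit, was at 1.75 FPKM in S40A at 8 h replicate 2, while the other 3 libraries of that group lay at 2.47 to 2.53 FPKM, so that this library stood far below the others for its group's range. It was the 1 such case among 105 groups of 4 libraries examined for the members; chance gives about 1 in 20.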

How the results depend on the processing

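For the 15 of 19 comparisons in which 0 members were called, 0 were called in any of 294 alternative fits. With GFP, WT and S40A together, 8 h against 4 h, 31 members were called, 31 to 33 with 1 library left out, 25 without run A, 32 without run B, 29 without the earlier 8 h set, 23 without the later, and 25 without run A and GFP 8 h replicate 2. Leaving out runs, sets or those 4 libraries, and this contrast itself, were chosen after seeing the data. In GFP alone 13 were called: 4 without scaling, 22 without run B, 3 without the earlier and 0 without the later 8 h set, 8 without run A and GFP 8 h replicate 2, and 1 to 15 with 1 library left out (lowest without GFP 4 h replicate 1, highest without S40A 4 h replicate 1). For run B against run A the count of 15 became 24 without scaling and ran from 1 (without any WT or S40A library at 4 h) to 27 (without either GFP library). For run D2 against D1 the count of 3 ran from 2 to 5 (5 without GFP 8 h replicate 2). The cause of these shifts was not tested. The share of all genes called in each of these fits is not given beside the counts, so the shifts are not read as results about the members. Of 1618 alternatives for single genes, 1416 stayed on their side of the threshold, 202 lost the call and 0 reversed.

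With the replicate block (run as a term), 26 members were called in GFP alone and 33 in the 3 viruses together. No run holds both times, so this term takes the differences between runs out of the spread but not out of the comparison. The higher counts are therefore not a stronger result. Libraries of 1 run deviated together at 4 h (correlations 0.55 to 0.56 over 2 numbers). At 8 h the correlations were -0.04 to 0.18 in runs C1 and C2, and 0.04 to 0.40, all positive, in D1 and D2. Between D1 and D2, 24.8% of all genes were called in either direction. Shared numbers thus go with shared deviations at 4 h, where there are only 2, and in D1 and D2. They are not shown to pair samples in C1 and C2. The main 8 h fit between viruses holds no term for run. The block changed no call between viruses. Values near 1 FPKM rest on few fragments, and the added 1 FPKM shrinks their differences: with 0.1 FPKM the G2/M median in GFP alone was -1.67 instead of -1.01.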
